A study of Mus musculus with 12 samples.

Results

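The output arm of the molecular clock was followed in irradiated mouse brain through 10 genes, chosen as the rows whose symbol is *Dbp*, *Tef*, *Hlf*, *Nfil3*, *Nr1d1*, *Nr1d2*, *Rora*, *Rorb*, *Bhlhe40* or *Bhlhe41*. Each of the 10 symbols occurred among the 23183 listed genes, and all 10 passed the filter on low values in both tissues. Male mice of the inbred wild-type strain C57BL/6 received 10 Gy to the whole brain in a single exposure (IR) or were sham-irradiated (Con), and 3 months later RNA of the cortex and of the hippocampus was sequenced. The mice had been bought at 7 weeks of age and acclimatised for 1 week, and the labels name no transgene or further treatment. Sham-irradiated and irradiated mice of the study also went through open-field and elevated plus maze tests 3 months after exposure, and whether the sequenced mice were among them is not given in the sources used here. Each of the 4 groups held 3 libraries. The hour of day at which tissue was taken is not given in the sources used here, and neither is whether cortex and hippocampus libraries of the same number came from the same mouse.

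The core clock of mammalian cells is a loop in which CLOCK and BMAL1 (the product of *Arntl*) drive transcription from E-boxes, and the PER and CRY proteins made in this way repress them. The genes described here carry that rhythm to other genes and feed it back onto the loop. The PAR bZIP factors DBP, TEF and HLF activate genes through D-boxes and NFIL3 (E4BP4) represses the same elements, whereas the nuclear receptors REV-ERBα and REV-ERBβ (*Nr1d1*, *Nr1d2*) repress and RORα and RORβ (*Rora*, *Rorb*) activate genes through ROR response elements (RRE), among them *Arntl* and *Nfil3*. DEC1 and DEC2 (*Bhlhe40*, *Bhlhe41*) are basic helix-loop-helix repressors that bind E-boxes, and DEC1 is also made in response to neuronal activity.

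These 3 elements were looked for in the promoters of the 10 genes, because each factor acts through one of them. RefSeq promoter windows on GRCm38.p6, from 250 bases before to 50 bases after a transcript start, were given for 9 of the 10 genes (11 windows); there was none for *Bhlhe40*. Both strands were searched for the E-box CACGTG, the D-box TTATGTAA or TTACGTAA, and the RRE core TAGGTCA or TGGGTCA. The E-box occurred in 2 of the 9 genes, against 8.09% of the 27025 genes with such windows. The RRE core occurred in 1 of the 9 genes, against 7.35% of all genes. The D-box occurred in none of the 9, against 1.23% of all genes, which says only that these letters are not in these windows. The matches are shown with their flanks, 5′ to 3′ along the strand of the gene, with the matched letters in capitals:
*Tef*, upstream start, chr15:81802534-81802563 (+): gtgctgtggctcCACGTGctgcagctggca
*Tef*, downstream start, chr15:81811264-81811293 (+): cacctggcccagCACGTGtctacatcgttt
*Bhlhe41*, chr6:145865556-145865585 (−): tggtacgttccgCACGTGagctgggtgctg
*Nfil3*, chr13:52981040-52981069 (−): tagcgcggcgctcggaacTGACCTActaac
The E-boxes of *Tef* began 127 and 138 bases before the RefSeq start of their windows, and that of *Bhlhe41* 153 bases before. GENCODE M21 places the first *Tef* match in an untranslated exon of a longer *Tef* transcript and in an exon of the antisense gene *Gm17597*, the second in an intron of *Tef*, and that of *Bhlhe41* outside the gene. The capitals in *Nfil3* are TAGGTCA read on the opposite strand, beginning 12 bases before the RefSeq start, within the first untranslated exon of the GENCODE transcript. None of the 4 matches overlapped another. The matches are descriptions of sequence, and binding was not measured.

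The values are FPKM, made by the authors, in which the fragments of a gene are divided by transcript length and by the size of the library. FPKM summed to between 359773 and 393447 per library, no pair of libraries held identical values, and depth in reads is unknown because no counts were used. As a check of the irradiation, *Cdkn1a* (p21, a cell cycle inhibitor induced by DNA damage) was at 5.67 to 6.33 FPKM in Con and 12.7 to 16.8 FPKM in IR in the cortex, and at 2.00 to 2.27 and 6.06 to 6.25 FPKM in the hippocampus. As a check of the tissues, 5 genes of cortical layer 4 neurons summed to 53.5 to 67.3 FPKM in cortex Con and 13.6 to 14.2 FPKM in hippocampus Con, and 4 genes of dentate granule cells to 45.6 to 48.8 and 116 to 144 FPKM. Of the dentate genes *Calb1* overlapped between the tissues (39.8 to 44.7 FPKM in cortex Con, 37.9 to 57.8 FPKM in hippocampus Con). *Prox1*, *Dsp* and *C1ql2* were higher in hippocampus Con without overlap. The calls in the hippocampus depended on the library Con 3: 4 of all genes were called with it and 880 without it, and at most 3 when any other hippocampal library was left out. It is named for this effect on the calls, not for its FPKM sum or median, so calls made without it show that dependence and are no independent support. Values without it are given where a call or a sign changed. A call, or the words rose and fell, means an adjusted p under 0.05 (Benjamini-Hochberg over all genes tested) in limma on log2(FPKM + 1), and log2 fold changes are IR minus Con on that scale, which understates changes of low genes such as *Nfil3*. Nothing beyond their labels says that the libraries of a group are separate mice, so p-values measure only the spread between these samples.

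In the sham-irradiated cortex the 10 genes spanned 3.99 to 94.5 FPKM. *Tef* was the most abundant at 94.5 ± 2.38 FPKM (SD, n = 3, as for all means here), followed by *Nr1d1* at 70.9 ± 5.11, *Hlf* at 51.4 ± 7.69 and *Dbp* at 48.4 ± 2.93 FPKM. *Bhlhe40*, *Nr1d2*, *Rora*, *Bhlhe41*, *Rorb* and *Nfil3* followed in that order. The libraries of neighbours overlapped between *Hlf* and *Dbp*, *Bhlhe40* and *Nr1d2*, and *Rora* and *Bhlhe41*, so that those neighbours did not differ beyond their spread. In the sham-irradiated hippocampus *Tef* (79.7 ± 4.25 FPKM) and *Nr1d1* (41.7 ± 6.56 FPKM) again led, and *Bhlhe40*, *Dbp* and *Hlf* lay close together, each overlapping the next. *Nr1d2* and *Bhlhe41* came after them, and *Rora* (4.23 ± 0.451), *Nfil3* (3.59 ± 0.393) and *Rorb* (2.87 ± 0.442 FPKM) were lowest and overlapped in turn. In IR *Dbp* moved from the fourth to the sixth place in both tissues, behind *Nr1d2*, and without overlap between the IR libraries of the 2 genes.

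Of the 10 genes, 8 were called lower in hippocampus Con than in cortex Con and none higher, where 43.8% of all genes tested were called in either direction. Both ROR genes were far less abundant in the hippocampus: the ratio of hippocampus to cortex was 0.346 for *Rora* (log2 difference −1.34, adjusted p = 1.87e-07 in limma) and 0.362 for *Rorb* (−1.21, 3.47e-07). *Hlf* had a ratio of 0.499, *Dbp* of 0.570, *Nr1d1* of 0.588, *Nr1d2* of 0.660, *Bhlhe40* of 0.743 and *Tef* of 0.843. The remaining genes were not called, *Nfil3* with a log2 difference of −0.12 (95% interval −0.31 to 0.07) and *Bhlhe41* with −0.17 (−0.41 to 0.06). *Rorb* marks layer 4 of the cortex, and of the 5 layer 4 genes summed above *Scnn1a* overlapped between the tissues (2.30 to 2.93 FPKM in cortex Con, 2.10 to 2.96 FPKM in hippocampus Con). Column names carry a different ending for each tissue, and if these endings mark processing runs, tissue and run cannot be told apart. The call of *Bhlhe40* was lost when any of 5 libraries was left out and with no filter (adjusted p = 0.0583 in limma). *Bhlhe41* was called without hippocampus Con 1 (−0.31, adjusted p = 0.0178 in limma), and was at −0.086 without hippocampus Con 3.

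After irradiation, 3 of the 10 genes were called in the cortex: *Dbp* and *Nr1d1* fell and *Nfil3* rose, where 0.725% of all genes tested were called. No gene of the 10 was called in the hippocampus, where 0.0285% of all genes were. At an unadjusted p under 0.05 there were 5 of the 10 in the cortex (14.1% of all genes) and 5 in the hippocampus (13.9% of all genes), among them *Dbp*, *Nfil3* and *Bhlhe41* in both tissues. The Con and IR libraries did not overlap in 5 genes in the cortex and in 5 in the hippocampus, against 20.3% and 19.8% of all genes. The thresholds the study used, a fold of 1.5 with an unadjusted p under 0.05, were also applied, with the limma p-values in place of its own. By them 3 of the 10 passed in the cortex (1.87% of all genes) and 1, *Dbp*, in the hippocampus (1.73% of all genes). Over all genes 263 and 243 passed in this way, and they need not be the genes of the study's lists. The cortical median log2 fold change of the 10 was −0.04, against 0.00162 over all genes tested, and the hippocampal median was −0.13, against −0.01. In whole tissue, fewer cells that express a gene and less RNA per cell cannot be told apart.

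Of the PAR bZIP activators, *Dbp* fell in the cortex, and *Tef* and *Hlf* were not called in either tissue. Transcription of *Dbp* is driven directly by CLOCK and BMAL1 through E-boxes, although the window searched above held no CACGTG for this gene. In the cortex it was at 51.3, 45.4 and 48.4 FPKM in the Con libraries and at 24.1, 23.5 and 25.2 FPKM in the IR libraries, so that the groups were well separated, at a ratio of means of 0.501. The mean fell from 48.4 ± 2.93 to 24.3 ± 0.863 FPKM, with a log2 fold change of −0.97 (SE 0.06, adjusted p = 0.000185 in limma). This was the smallest p of the 14065 genes tested in the cortex. In the hippocampus *Dbp* was at 26.7, 24.7 and 31.3 FPKM in Con and at 14.2, 15.8 and 16.2 FPKM in IR, again without overlap. The log2 fold change there was −0.80 (SE 0.10, 95% interval −1.02 to −0.58, adjusted p = 0.0823 in limma), the fifth smallest p of 14043 genes. Without hippocampus Con 3 it was −0.71 and called (adjusted p = 0.0140), where 6.33% of all genes were called. With any other hippocampal library left out it was not called, with adjusted p from 0.145 to 0.573. The *Dbp* gene (chr7:45705088-45710203, +, GRCm38) shares 539 of its 2993 exonic bases with *Sphk2* on the opposite strand. Cortical *Sphk2* went from 16.2 to 13.9 FPKM (log2 fold change −0.21), and hippocampal *Sphk2* from 14.4 to 12.4 FPKM (−0.20). The kit was directional, but whether the counting used strand is not given in the sources used here.

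*Tef*, the most abundant of the family, showed values of 94.5, 92.1 and 96.9 FPKM in cortex Con and 93.7, 89.2 and 93.1 FPKM in cortex IR, which overlapped. Its log2 fold change in the cortex was −0.04 (95% interval −0.15 to 0.07). In the hippocampus *Tef* was at 75.2, 80.3 and 83.6 FPKM in Con and at 98.5, 96.3 and 100.8 FPKM in IR, so every IR library was above every Con library. The ratio of means was 1.24 and the log2 fold change 0.30 (SE 0.07, adjusted p = 0.225 in limma), and without hippocampus Con 3 it was called (log2 fold change 0.34, adjusted p = 0.0279). *Hlf* overlapped between Con and IR in both tissues. It was at 56.8, 42.6 and 54.9 FPKM in cortex Con and at 52.4 to 56.9 FPKM in cortex IR, with cortex Con 2 the lowest of the 6. Hippocampal values were 25.5 to 25.8 FPKM in Con and 24.3 to 28.1 FPKM in IR. Its log2 fold changes were 0.09 and 0.05, with 95% intervals of −0.13 to 0.30 and −0.11 to 0.22.

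**Figure D1:**
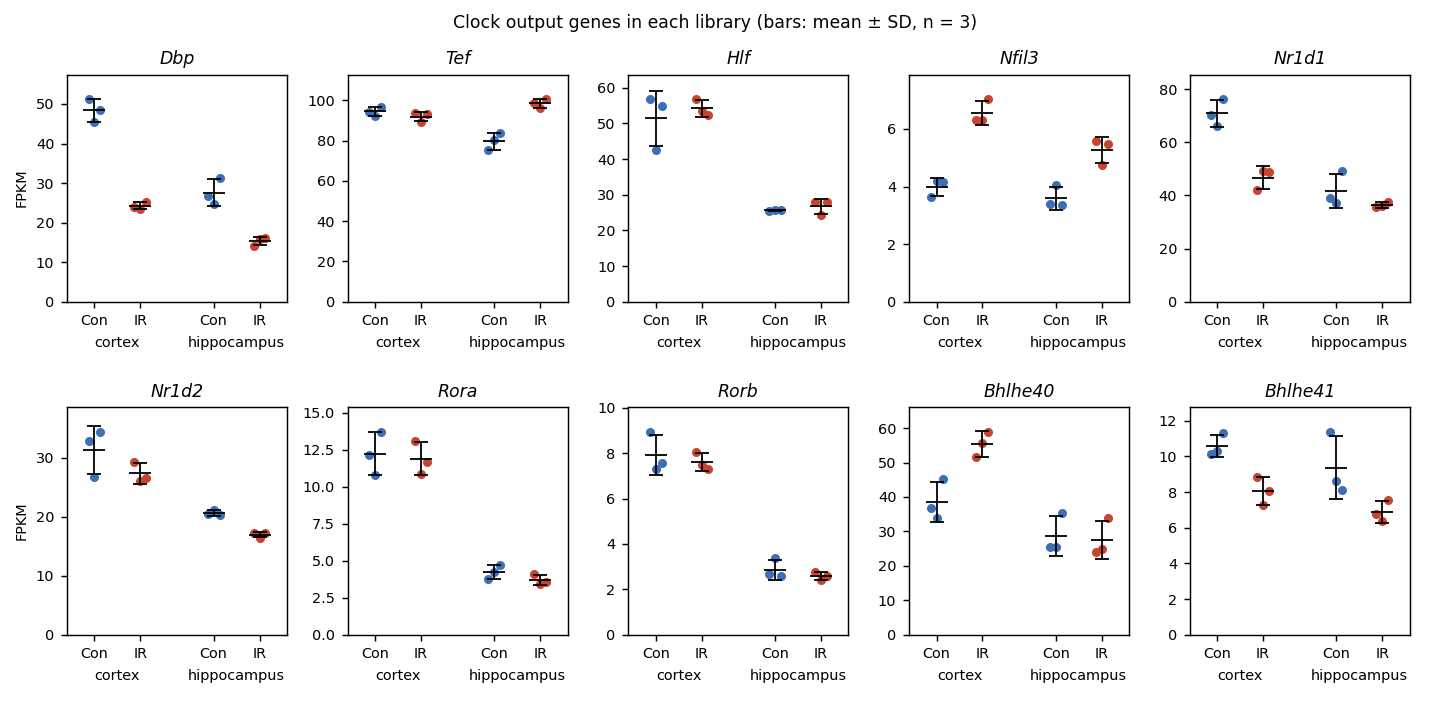
FPKM of the 10 clock output genes in each library (points, blue for Con and red for IR), with the mean and SD of each group of 3 as bars, on a linear axis from 0 for each gene. In *Dbp* the IR libraries (23.5 to 25.2 FPKM in the cortex, 14.2 to 16.2 in the hippocampus) sit below all Con libraries of their tissue, in *Nfil3* above them, and *Bhlhe40* separates in the cortex and overlaps in the hippocampus.

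*Nfil3*, the repressor that competes with these activators for D-boxes, was the least abundant of the 10 genes in the cortex and changed opposite to *Dbp*. In the cortex it was at 3.63, 4.18 and 4.14 FPKM in Con and at 6.33, 6.31 and 7.04 FPKM in IR. The mean rose 1.65-fold, from 3.99 ± 0.305 to 6.56 ± 0.420 FPKM (log2 fold change 0.60, SE 0.08, adjusted p = 0.0139 in limma). Without cortex IR 1, IR 2 or IR 3 the adjusted p was 0.0726, 0.0506 or 0.0549, with log2 fold changes of 0.56 to 0.62. In the hippocampus *Nfil3* was at 3.39, 4.05 and 3.34 FPKM in Con and at 5.60, 4.75 and 5.47 FPKM in IR, also without overlap. There the ratio was 1.47 and the log2 fold change 0.45 (SE 0.10, adjusted p = 0.225 in limma), and without hippocampus Con 3 the adjusted p was 0.0609. Over the 12 libraries, with the mean of each tissue removed, *Dbp* and *Nfil3* had a Pearson r of −0.97, the most negative of all pairs among the 10 genes. These libraries share the treatment, so the value describes the pattern and is no test.

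The mean log2(FPKM + 1) of *Dbp*, *Tef* and *Hlf* minus that of *Nfil3* gives a balance of D-box activators over their repressor in each library. In the cortex it was 3.83, 3.47 and 3.65 in Con and 2.82, 2.76 and 2.66 in IR, a difference of −0.91 without overlap. The hippocampal balance was 3.12, 2.92 and 3.27 in Con and 2.42, 2.59 and 2.52 in IR, a difference of −0.60 without overlap. Every IR library thus had a lower balance than every Con library of its tissue. With *Tef* and *Hlf* alone as the activators the difference was smaller, at −0.58 in the cortex and −0.27 in the hippocampus, still without overlap. In it *Nfil3* had log2 fold changes of 0.60 and 0.45. *Tef* and *Hlf* were at −0.04 and 0.09 in the cortex and at 0.30 and 0.05 in the hippocampus, so these activators were not lower as a pair. With *Dbp* alone it was −1.57 and −1.25. These balances are descriptions of the chosen genes and carry no test.

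**Figure D2:**
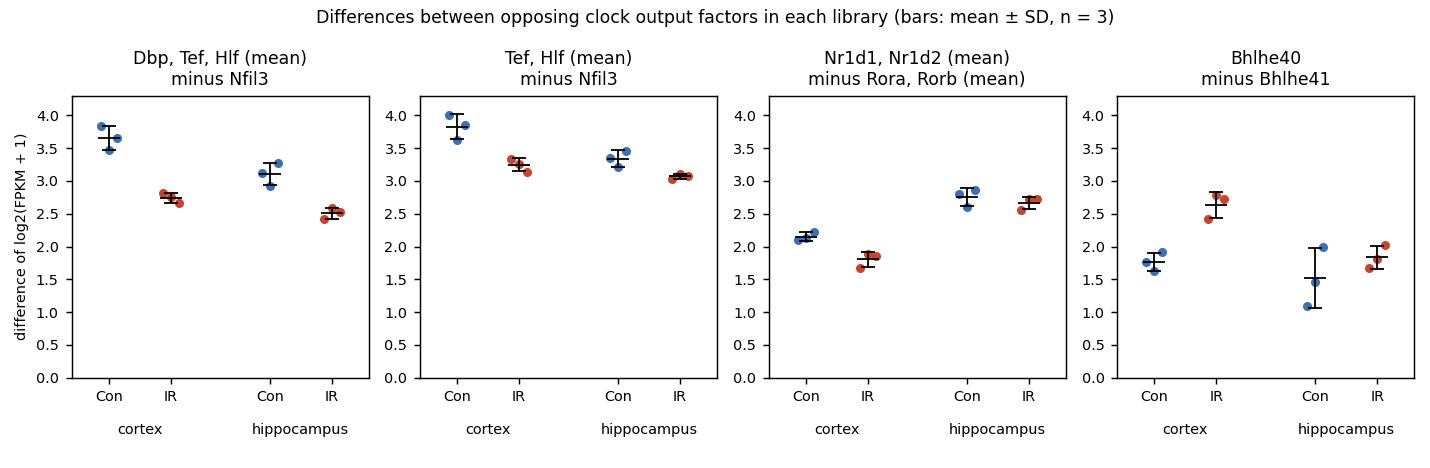
Differences of log2(FPKM + 1) between opposing clock output factors in each library (points, blue for Con and red for IR), with mean and SD of 3 libraries as bars. The balance of *Dbp*, *Tef* and *Hlf* over *Nfil3* is lower in IR in both tissues (by 0.91 and 0.60 on average), whereas that of *Nr1d1* and *Nr1d2* over *Rora* and *Rorb*, and that of *Bhlhe40* over *Bhlhe41*, separate Con from IR in the cortex and overlap in the hippocampus.

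Of the REV-ERB repressors, *Nr1d1* fell in the cortex. It was at 70.2, 66.2 and 76.4 FPKM in cortex Con and at 41.9, 49.4 and 49.0 FPKM in cortex IR, with IR 1 the lowest. The ratio of means was 0.659 and the log2 fold change −0.59 (SE 0.08, adjusted p = 0.0124 in limma). The call was lost with no filter (adjusted p = 0.0517) and without trend or robust prior in limma (0.0588). Without cortex IR 1 the log2 fold change was −0.52 and the adjusted p 0.0520, in a comparison in which the calls over all genes went from 102 to 16. Only *Dbp* of the 10 genes was still called without cortex IR 1, where 0.114% of all genes were. In the hippocampus the *Nr1d1* libraries overlapped, at 38.9, 37.0 and 49.2 FPKM in Con and 35.6, 36.2 and 37.6 FPKM in IR (log2 fold change −0.18, 95% interval −0.42 to 0.06). Con 3 was the highest of the 6, and without it the log2 fold change was −0.06. *Nr1d1* (chr11:98767932-98775333, −) shares 263 of its 3077 exonic bases with *Thra* on the opposite strand. *Thra* was at 186 FPKM in cortex Con and 174 FPKM in cortex IR, and overlapped between the groups.

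*Nr1d2*, the second REV-ERB, was called in neither tissue. In the cortex it was at 32.8, 26.7 and 34.4 FPKM in Con and 29.3, 26.1 and 26.6 FPKM in IR, which overlapped (log2 fold change −0.18, adjusted p = 0.409 in limma). The value was −0.29 (adjusted p = 0.0870 in limma) without cortex Con 2, the lowest Con library, and −0.11 without cortex Con 3, the highest. Its hippocampal values were 20.4, 21.2 and 20.3 FPKM in Con and 17.2, 16.4 and 17.2 FPKM in IR, without overlap. The log2 fold change there was −0.27 (SE 0.06, adjusted p = 0.225 in limma), and −0.28 without hippocampus Con 3 with an adjusted p of 0.0432. The difference between the responses of the 2 tissues was −0.09 for *Nr1d2* (95% interval −0.34 to 0.16), so the tissues were not shown to differ.

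The ROR activators overlapped between Con and IR in both tissues. *Rora* was at 12.1, 10.8 and 13.7 FPKM in cortex Con and 13.1, 10.9 and 11.7 FPKM in cortex IR, with a log2 fold change of −0.03 (95% interval −0.24 to 0.17). In the hippocampus it was at 3.79 to 4.69 FPKM in Con and 3.41 to 4.09 FPKM in IR (−0.16, interval −0.38 to 0.07). *Rorb* was at 7.29 to 8.94 FPKM in cortex Con and 7.32 to 8.07 FPKM in cortex IR (−0.05, interval −0.23 to 0.14), and its hippocampal log2 fold change was −0.10 (interval −0.35 to 0.14). With a hippocampal library left out, *Rorb* ranged from −0.16 to −0.013 (without Con 2) and *Rora* from −0.22 to −0.094 (without Con 3). The intervals reach as far as −0.38 and 0.17, so the values do not show that these genes were unaffected. The mean log2(FPKM + 1) of *Nr1d1* and *Nr1d2* minus that of *Rora* and *Rorb* was 2.10, 2.12 and 2.22 in cortex Con and 1.67, 1.88 and 1.85 in cortex IR, a difference of −0.35 without overlap. The same difference in the hippocampus was 2.61 to 2.86 in Con and 2.56 to 2.72 in IR, a difference of −0.09 with overlap. By single pairs, *Nr1d1* over *Rora* differed by −0.56 in the cortex without overlap and by −0.02 in the hippocampus with overlap, and *Nr1d2* over *Rorb* by −0.14 and −0.16, both with overlap.

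The DEC repressors had log2 fold changes of opposite sign in the cortex, and neither passed the adjusted threshold as fitted here. *Bhlhe40* (DEC1) was at 36.8, 33.9 and 45.2 FPKM in cortex Con and at 51.5, 55.7 and 58.9 FPKM in cortex IR, without overlap. Its ratio of means was 1.43 and its log2 fold change 0.52 (SE 0.10), and the adjusted p of 0.0518 in limma lay just outside the threshold. Without cortex Con 3, the highest of the Con libraries, it was called (log2 fold change 0.63, adjusted p = 0.0175), as it was with all libraries when only genes with at least 1 FPKM in every library were tested (adjusted p = 0.0420). It was not called with no filter (adjusted p = 0.141), without trend or robust prior in limma (0.115), in the fit of all 12 libraries (0.194), or with any other cortex library left out (up to 0.149). In the hippocampus *Bhlhe40* was at 25.4, 25.3 and 35.4 FPKM in Con and 23.9, 24.8 and 33.8 FPKM in IR, with a log2 fold change of −0.06 (95% interval −0.43 to 0.31), and of 0.09 without Con 3. The third library was the highest in each of the 4 groups. *Bhlhe41* (DEC2) was at 10.2, 10.3 and 11.3 FPKM in cortex Con and 8.86, 7.25 and 8.06 FPKM in cortex IR, without overlap (log2 fold change −0.36, SE 0.08, adjusted p = 0.0916 in limma). In the hippocampus it was at 11.4, 8.61 and 8.11 FPKM in Con and 6.78, 6.35 and 7.56 FPKM in IR, also without overlap (−0.38, SE 0.12, adjusted p = 0.291 in limma). Con 1 was the highest of these, and without it the log2 fold change was −0.25. The log2 difference of *Bhlhe40* over *Bhlhe41* was 1.76, 1.63 and 1.91 in cortex Con and 2.41, 2.78 and 2.73 in cortex IR, higher by 0.87 on average. The hippocampal libraries ranged from 1.09 to 2.00 in Con and from 1.68 to 2.02 in IR, which overlapped.

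Whether the tissues responded differently was tested as the interaction of irradiation and tissue over the 12 libraries. None of the 10 genes was called, where 0.0823% of all genes tested were. At an unadjusted p under 0.05 there were 3 of the 10 (10.3% of all genes). The response of *Tef* was higher in the hippocampus by 0.34 on the log2 scale (adjusted p = 0.184 in limma), and that of *Nr1d1* by 0.42 (adjusted p = 0.357). The response of *Bhlhe40* differed in the opposite direction, by −0.58 (adjusted p = 0.405). Without hippocampus Con 3 the interaction was called for *Tef* (0.38, adjusted p = 0.0204 in limma) and *Nr1d1* (0.54, adjusted p = 0.0231), where 3.3% of all genes were called. The responses of *Dbp* differed by 0.17 (95% interval −0.08 to 0.42) and those of *Nfil3* by −0.15 (−0.42 to 0.12). With a library left out these ranged from 0.097 (without hippocampus Con 2) to 0.26 (without hippocampus Con 3) for *Dbp*, and from −0.19 (without hippocampus Con 3) to −0.081 (without hippocampus Con 2) for *Nfil3*. Without the same library *Dbp*, *Tef* and *Nr1d2* were called within the hippocampus, and none of the 10 was called there with any other library left out. In a single fit of all 12 libraries, which shares the estimate of the spread between tissues, *Dbp* (adjusted p = 0.00148 in limma), *Tef* (0.0373) and *Nfil3* (0.0461) were called in the hippocampus, where 0.501% of all genes were.

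**Figure D3:**
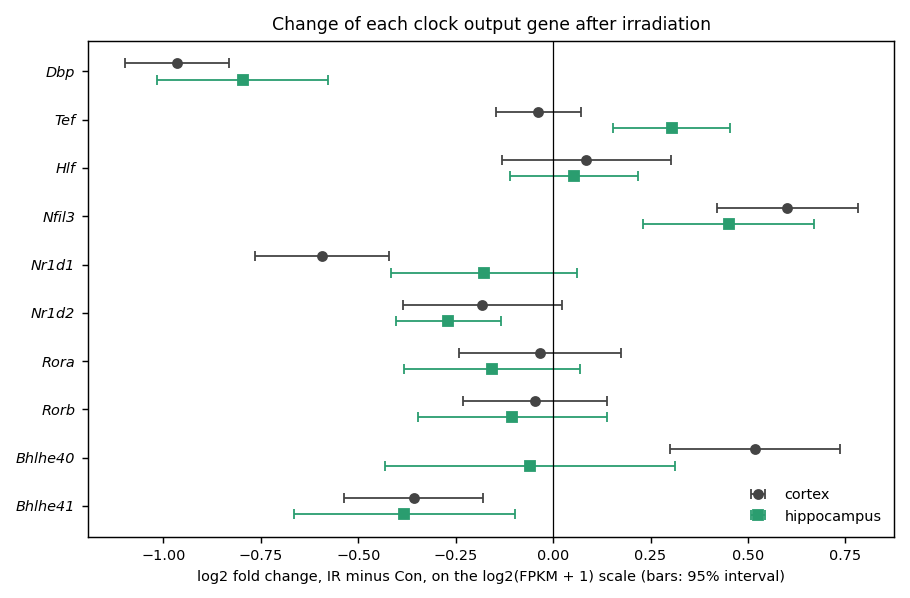
Log2 fold change of each of the 10 genes, IR minus Con on the log2(FPKM + 1) scale, in the cortex (dark circles) and the hippocampus (green squares), with 95% intervals from limma as bars. *Dbp* lies lowest in both tissues (−0.97 and −0.80) and *Nfil3* highest (0.60 and 0.45), while *Tef*, *Nr1d1* and *Bhlhe40* lie farthest apart between the tissues.

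The rest of the clock pathway was read from 42 other genes in 6 groups, all of which passed the filter. In the cortex 2 rose and 2 fell, where 0.725% of all genes were called, and at an unadjusted p under 0.05 there were 9 higher and 4 lower, where 14.1% of all genes passed. *Arntl*, which encodes BMAL1 and is repressed by REV-ERBα, rose from 12.7 ± 0.403 to 16.6 ± 0.583 FPKM (log2 fold change 0.37, adjusted p = 0.0286 in limma). It was the only one called of the 4 activators of the loop, and none of the 4 was called when any cortex library other than Con 2 was left out. Of the 6 E-box-driven repressors, *Per2* rose from 6.21 ± 0.405 to 10.8 ± 0.464 FPKM (0.71, adjusted p = 0.00400) and *Ciart* (CHRONO), a repressor of CLOCK and BMAL1, fell from 12.7 ± 1.59 to 6.59 ± 0.432 FPKM (−0.85, adjusted p = 0.00447). In the fit of all 12 libraries *Cry1* was called as well (0.40, adjusted p = 0.0308). All 6 had groups that did not overlap, where 20.3% of all genes tested did not. In Con and IR *Cry1* was at 5.48 and 7.57 FPKM (adjusted p = 0.0686 in limma) and *Per1* at 25.5 and 35.5 FPKM (0.216). *Per3* was at 11.3 and 9.48 FPKM (0.168) and *Cry2* at 42.9 and 45.6 FPKM (0.510). Genes of one arm thus had different signs: *Per2* was higher in IR, and *Dbp* and *Ciart*, which share its E-box control, were lower. Of the 10 known clock-controlled targets, *Usp2*, a deubiquitinase with strong daily rhythms, fell from 34.0 ± 3.22 to 23.4 ± 1.02 FPKM (−0.52, adjusted p = 0.0168), and none of these 10 was called without cortex IR 1 or without cortex IR 2. With no filter, *Arntl* (adjusted p = 0.0686) and *Usp2* (0.0673) were not called, and neither was without trend or robust prior in limma (0.0683 for both). None was called among the 8 clock kinases and ligase adaptors, the 9 corepressors and coactivators of REV-ERB and ROR, or the 5 glucocorticoid-responsive genes, of which 1, 1 and 0 had an unadjusted p under 0.05 in limma.

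In the hippocampus none of the 42 was called, and 2 were higher and 4 lower at an unadjusted p under 0.05, a share close to the 13.9% of all genes. *Ciart* was at 5.87, 6.32 and 6.25 FPKM in Con and 3.29, 4.31 and 4.34 FPKM in IR (log2 fold change −0.53, adjusted p = 0.214 in limma), and *Usp2* went from 26.4 to 19.8 FPKM (−0.39, 0.247), neither with overlap. Without Con 3 both were called (*Ciart* −0.52, adjusted p = 0.0467, and *Usp2* −0.48, adjusted p = 0.0275 in limma). *Per2*, at 7.13 ± 0.428 and 7.96 ± 1.32 FPKM, *Arntl*, at 11.9 ± 0.940 and 13.2 ± 0.887 FPKM, and *Cry1*, at 4.52 and 4.73 FPKM, each overlapped there. The interaction was −0.58 for *Per2* (adjusted p = 0.200 in limma), −0.35 for *Cry1* (0.309), −0.23 for *Arntl* (0.436) and 0.32 for *Ciart* (0.462), so a difference between the tissues was not called for any of them. Over the 42 genes the median log2 fold change was 0.02 for the cortex and −0.02 for the hippocampus.

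**Figure D4:**
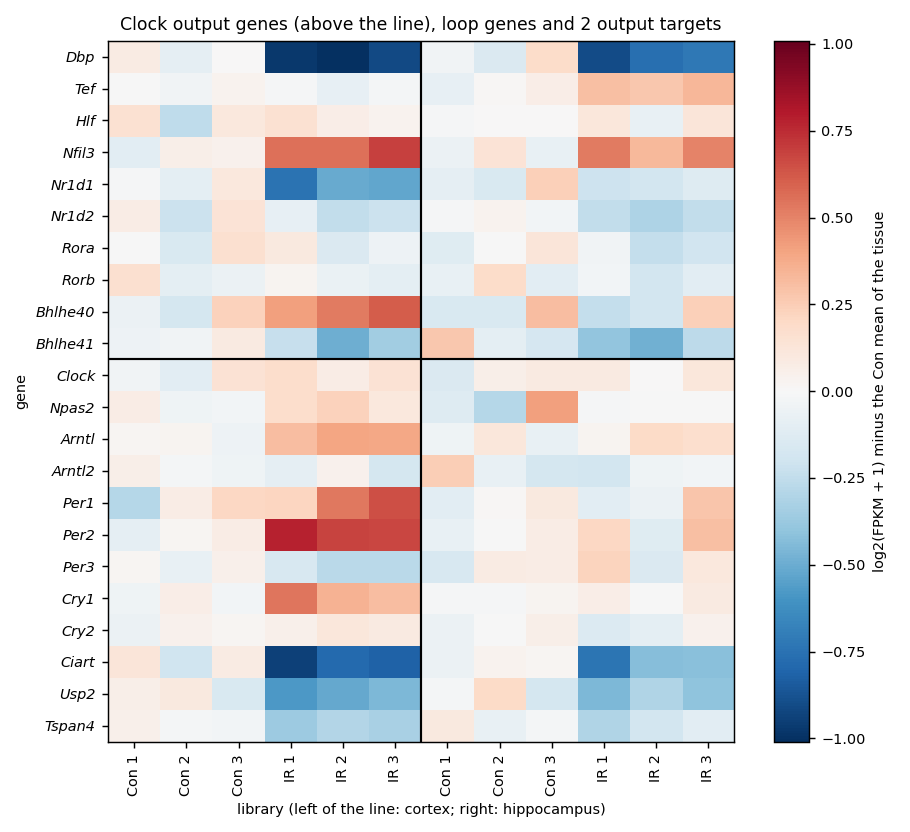
Log2(FPKM + 1) of each gene (rows) in each library (columns) minus the Con mean of its tissue, from blue (lower) to red (higher), with the 10 clock output genes above the horizontal line and genes of the loop with *Usp2* and *Tspan4* below it. *Dbp* and *Ciart* are lower in the IR libraries of both tissues, while *Per2*, *Arntl* and *Bhlhe40* stand out in the IR libraries of the cortex (*Per2* 0.71, *Arntl* 0.37 and *Bhlhe40* 0.52 on average).

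To place each gene among all others, the genes with the most similar pattern were listed by Pearson r of log2(FPKM + 1) over the 12 libraries after the mean of each tissue was removed, among 8503 genes. The values describe 12 libraries that share tissue and treatment. Nearest to *Dbp* were *Ciart* (r = 0.960), *Eef2k* (0.946), which encodes the kinase of elongation factor 2, and *Lyrm9* (0.930). *Eef2k* was also the second nearest to *Nr1d1* (0.885), after *Fam214a* (0.902). Nearest to *Nfil3* were *Sgsm1* (0.954), *Gpt2* (0.953) and *Cdkn1a* (0.953). Nearest to *Tef* were *Mlst8* (0.976), a subunit of the mTOR complexes, *Pdk2* (0.955) and *Il34* (0.948), a ligand of CSF1R, and nearest to *Bhlhe40* was *Hivep3* (0.958). For *Hlf*, *Nr1d2*, *Rora*, *Rorb* and *Bhlhe41* the highest r was with *Kcnc1* (0.929), *Kcnj3* (0.920), *Slc25a32* (0.879), *1600012H06Rik* (0.912) and *Mphosph6* (0.906). Among the 10 themselves, *Dbp* went with *Nr1d1* (0.869), *Bhlhe41* (0.795) and *Nr1d2* (0.766), and against *Nfil3*.

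Other gene groups differed in the same contrast. Of 15 activity-regulated genes such as *Fos*, *Arc* and *Egr1*, 14 were higher in cortex IR, 9 of them at an unadjusted p under 0.05 and 2 by call (7102 of the 14065 genes tested were higher, 14.1% passed the unadjusted p in either direction and 0.725% were called), *Egr3* (35.9 to 71.6 FPKM) and *Fosb* (3.28 to 6.31 FPKM), the latter not called when any cortex library was left out. Their sum was 215 to 437 FPKM in cortex Con and 661 to 808 FPKM in cortex IR. In the hippocampus 14 of the 15 were again higher in IR (6636 of the 14043 genes tested were), and none was called. *Fos* and *Fosl2* were the 2 at an unadjusted p under 0.05 in limma, near the 13.9% of all genes. The median log2 fold change of the 15 was 0.12 there and 0.86 in the cortex. Hippocampal sums were 184 to 242 FPKM in Con and 207 to 307 FPKM in IR. The cold-inducible RNA-binding protein genes *Cirbp* and *Rbm3*, whose RNA follows body temperature, summed to 142 to 149 FPKM in Con and 82.6 to 110 FPKM in IR in the cortex, and to 132 to 199 and 63.1 to 99.2 FPKM in the hippocampus. Cortical *Cirbp* fell (log2 fold change −0.71, adjusted p = 0.0168 in limma), and the hippocampal value was −1.10 (adjusted p = 0.230). Neither of these genes was called in the cortex without cortex Con 2 or without cortex Con 3. Without hippocampus Con 3 both were called in the hippocampus, *Cirbp* at −1.32 (adjusted p = 0.0367 in limma) and *Rbm3* at −0.97 (adjusted p = 0.0372). The part of neuronal activity, body temperature or the hour of collection in the values of *Dbp*, *Nfil3*, *Nr1d1* and *Bhlhe40* was not tested.

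Marker sums of cell types were compared in the same way. The 6 neuronal genes summed to 2333 to 2710 FPKM in cortex Con and 2430 to 2644 FPKM in cortex IR, and to 2225 to 2463 and 2253 to 2342 FPKM in the hippocampus, overlapping in both. The 5 genes of layer 4 neurons, which hold much of the *Rorb* of the cortex, summed to 53.5 to 67.3 FPKM in cortex Con and 58.2 to 62.5 FPKM in cortex IR. The 5 microglial genes had lower sums in IR, of 58.6 to 64.1 and 39.1 to 58.0 FPKM in the cortex and 60.2 to 66.9 and 42.5 to 45.6 FPKM in the hippocampus. None of them was called in the cortex, where 2 of 5 passed the unadjusted threshold in limma (14.1% of all genes) and the other 3 overlapped between the groups. *Csf1r* was called in the hippocampus (0.0285% of all genes). There 4 of 5 passed the unadjusted threshold (13.9% of all genes) and *Aif1* overlapped. The 4 endothelial genes summed to 38.0 to 47.3 FPKM in Con and 50.2 to 59.5 FPKM in IR in the cortex, and to 36.9 to 42.6 and 47.6 to 49.9 FPKM in the hippocampus. No endothelial or oligodendrocyte gene was called in either tissue. In limma, 3 of each list passed the unadjusted threshold in cortex libraries, where 14.1% of all genes did. In hippocampal ones 1 endothelial and 2 oligodendrocyte genes passed it, where 13.9% of all genes did. The 5 oligodendrocyte genes summed to 968 to 1198 FPKM in cortex Con and 1215 to 1472 FPKM in cortex IR, and overlapped in the hippocampus, at 997 to 1211 and 934 to 1192 FPKM. Astrocyte, thalamus and dentate granule cell sums overlapped between Con and IR in both tissues, and none of their genes was called. All 5 astrocyte genes were lower in hippocampus IR, 3 of them at an unadjusted p under 0.05 in limma and 3 without overlap. Of the 14043 genes tested there, 7407 were lower, 13.9% passed that p in either direction and 19.8% did not overlap. Of the 4 dentate genes 3 had higher means and *Calb1* a lower mean in hippocampus IR, and *Prox1* (0.30 on the log2 scale) was the 1 that passed the unadjusted threshold in limma, the other 3 overlapping. The 4 choroid plexus genes differed between single libraries, with cortical sums of 3.27 to 435 FPKM and hippocampal sums of 21.8 to 1631 FPKM. No listed marker was at 0 throughout a group, and the part of these cell types in the values of the 10 genes was not tested.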

How the data were processed

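RNA-seq values of 6 cortex and 6 hippocampus libraries were used. Per the methods of the study, the authors trimmed reads with FASTX_Trimmer and BBMap, aligned them with TopHat, estimated FPKM with Cufflinks and applied a geometric normalization in edgeR before the FPKM tables were deposited. The submitters' processing notes name mm10. Tool versions and the annotation are not given in the sources used here. For RNA, the study's methods give a lipid tissue column kit (RNeasy) with poly(A) capture, whereas Trizol and total RNA stand in the sample labels. Groups were taken from the sample labels.

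A gene was tested when 3 or more libraries of a fit held 0.5 FPKM or more, and was analysed on log2(FPKM + 1) with limma 3.58.1 (trend and robust prior) in R 4.3.3. Irradiation was tested in each tissue separately, and the interaction and the tissue contrast in a fit of all 12 libraries. The p-values were adjusted by Benjamini-Hochberg over all genes tested, and a gene was called at an adjusted p under 0.05. The script was tested on simulated data. Intervals are 95% intervals from limma and cover the spread between libraries only.

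The 10 genes, the pathway and marker lists and the tests were chosen with earlier results of these data known. Genes named are the 10, those of the lists, the 3 most similar genes of each of the 10 (those with a standard deviation of at least 0.1 after the tissue mean was removed) and *Cdkn1a*. Genes whose annotated exons overlap with one of the 10 or with a matched sequence are named as well. Besides *Dbp* and *Nr1d1*, *Bhlhe41* shares 1280 of its 6720 exonic bases with *Gm43909* and *Tef* 193 of 7867 with *Gm17597*. *Bhlhe40* shares 118 of 4705 with *0610040F04Rik* and *Rora* 82 of 13071 with *Gm15511*. All of these overlaps are on the opposite strand. Gene positions and exons came from GENCODE M21 on GRCm38, and promoter sequences from RefSeq on GRCm38.p6. Alternatives were no filter, a pseudocount of 0.1, a minimum of 1 FPKM in every library, quantile and median-of-ratios scaling, limma without trend or robust prior, the library number as a block, a single fit of all 12 libraries, libraries of the same group and number as 1 mouse, the study's fold and p thresholds, and leaving out each library. The plots were made in Python 3.11.15 with matplotlib 3.10.9.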

Additional observations from a re-analysis of the deposited data

How the results depend on the processing

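With a library left out, the number of the 10 genes called ranged from 1 to 4 in the cortex. It was 1 without IR 1, where 16 of all genes were called, and 4 without Con 3, where 45 were. The range was 0 to 3 in the hippocampus (3 without Con 3, where 6.33% of all genes were called). For the interaction it was 0 to 2 (2 without hippocampus Con 3, where 3.3% of all genes were called). In the hippocampus 3 of the 10 were called in the 12-library fit (0.501% of all genes) and 1 by the study's fold and p. By that fold and p, 1.73% of all genes passed in the hippocampus and 1.87% in the cortex. Of the 42 pathway genes in the cortex, 2 were called with no filter, without trend or robust prior, or by the study's fold and p, and 2 to 4 with a library left out. In the hippocampus it was 1 in the 12-library fit, 2 by fold and p, and 0 to 2 with a library left out. Of the activity-regulated genes in the cortex, 1 was called with no filter or without trend or robust prior, 9 by fold and p, and 1 to 4 with a library left out, and 1 in the hippocampus by fold and p. Of the cold-inducible genes, 0 were called in the cortex with no filter, without trend or robust prior or in the 12-library fit, and 0 to 1 with a library left out. In the hippocampus it was 1 in the 12-library fit, 2 by fold and p, and 0 to 2 with a library left out. The calls over all genes moved with these settings as well, as given next. The cause of these differences was not tested.

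Over all genes, 102 were called in the cortex, 22 without trend or robust prior, 24 with no filter and 16 without cortex IR 1. In the hippocampus the 4 became 73 in the 12-library fit and 0 when any of its IR libraries was left out, and the 12 interaction calls became 0 without trend or robust prior. *Nr1d1* in the cortex had an adjusted p of 0.0517 with no filter and 0.0588 without trend or robust prior, and *Bhlhe40* one of 0.0420 with at least 1 FPKM in every library. Under quantile normalization the interactions of *Hlf* and *Bhlhe41* changed sign (0.0036 and 0.0062). With a library left out, the log2 fold changes of *Hlf* (−0.042 to 0.16), *Rora* (−0.11 to 0.047) and *Rorb* (−0.097 to 0.034) for the cortex and of *Bhlhe40* (−0.21 to 0.094) for the hippocampus took either sign, as did the interactions of *Hlf* (−0.11 to 0.095), *Nr1d2* (−0.16 to 0.020), *Rorb* (−0.14 to 0.034) and *Bhlhe41* (−0.11 to 0.11).

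Over all genes, libraries of the same number did not deviate together (mean r between Con and IR of −0.0137 for the cortex and −0.211 for the hippocampus, and between tissues of 0.0539 for Con and 0.0136 for IR), so the numbers were not taken as pairs, although single genes such as *Bhlhe40* were highest in the third library of each group. With the number as a replicate block, 71 genes were called in the cortex, 5 of them activity-regulated. *Bhlhe40* (adjusted p = 0.0419) and *Per1* (0.0336) were then called there and *Arntl* (0.0709) was not. The block left 1 gene called among the hippocampal libraries.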
